A study of Mus musculus with 6 samples.

Results

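Complement is a set of plasma and cell-surface proteins that tag cells and debris for uptake and recruit leukocytes. In the classical pathway C1q, a hexameric protein assembled from the chains encoded by *C1qa*, *C1qb* and *C1qc*, binds immune complexes and dying cells, and in all pathways the central component C3 is cleaved, releasing the anaphylatoxin C3a. Factor B (*Cfb*) and properdin (*Cfp*) form and stabilize the convertase of the alternative pathway, and *C3ar1* and *C5ar1* encode the receptors for C3a and C5a. Most plasma components are made by the liver, whereas macrophages are a main source of C1q in tissues. The 8 genes described here are these 3 C1q chains, *C3*, *Cfb*, *Cfp* and both receptors, taken by their symbol from the 23424 genes of each table, and each symbol matched 1 gene.

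RNA was sequenced in bulk from tumor-associated macrophages (TAMs), F4/80high or F4/80low, sorted from intradermal YUMM1.7 melanomas, with 3 libraries of each subset. YUMM1.7 cells are an established line of mouse melanoma. All hosts were untreated, wild-type C57Bl/6J females, 8 weeks old when the tumors were started, and tumors were taken at day 21. F4/80 is a macrophage surface protein encoded by *Adgre1*. Live CD45+ CD11b+ cells, lineage-negative by the study's methods, were gated by their F4/80 level in 3 independent experiments. Tumors were pooled, so one library stands for a pool and not for a mouse. Replicates of one number in both subsets are taken to come from one experiment, which the labels do not state, and are compared below as pairs. The study draws replicates 1 and 2 as batch 1 and replicate 3 as batch 2. Batch and experiment cannot be told apart for replicate 3.

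The libraries held 16045281 to 43604373 counts, and the pair of batch 2 was the smallest, with 3 features (*Lars2*, *Gm23935* and *Gm15564*) taking 16.1% and 17.1% of its counts. *Adgre1* measured 391 ± 136 CPM in F4/80high against 251 ± 71.9 CPM in F4/80low (SD, n = 3 each), with the F4/80high library above its partner in 3 of 3 pairs, as in 16.0% of all genes tested. Across pairs the subsets overlapped, with F4/80high replicate 1 at 273 CPM and F4/80low replicate 2 at 327 CPM. All 6 macrophage markers examined (*Adgre1*, *Csf1r*, *Cd68*, *Itgam*, *Ptprc* and *Fcgr1*) were detected. They did not share a direction, with 2 higher and 1 lower in F4/80high in 3 of 3 pairs. CPM are read counts scaled to a common library size, here corrected by TMM factors. In bulk RNA, fewer cells of a type and less RNA per cell cannot be told apart. Log2 fold changes are from edgeR's quasi-likelihood test over all 14645 protein-coding genes kept, with batch as a term, and are positive when higher in F4/80high. Calls required a p under 0.05 after Benjamini-Hochberg adjustment together with a log2 fold change beyond 1 in either direction. *Adgre1* had a log2 fold change of 0.67 (SE 0.30, edgeR adjusted p = 0.664) and was not called.

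The 3 C1q genes lie side by side on chromosome 4 (GRCm38, GENCODE M21), all on the minus strand, with *C1qb* from 136880129 to 136886187, *C1qc* from 136889804 to 136893065 and *C1qa* from 136895917 to 136898803. Since the C1q chains moved together and *C3* moved the other way in every pair, the promoter windows of *C1qb*, *C1qc* and *C3* are shown. Each window runs from 250 bases before to 50 bases after the start in RefSeq. That start can differ from the GENCODE one, and most of the *C1qc* window lies inside the GENCODE gene. All 3 are from GRCm38.p6 and the minus strand, at chr4:136886151-136886450, chr4:136892865-136893164 and chr17:57228087-57228386. Capitals mark any match, on either strand, to a small set of motifs. The core bound by the macrophage factor PU.1 was searched as GAGGAA. A half-site of the Maf recognition element was searched as TGCTGA. The motif of C/EBP factors was searched as TTGCNNAA. The TATA box was searched as TATAAA. No marked matches overlap in these windows.
C1qb: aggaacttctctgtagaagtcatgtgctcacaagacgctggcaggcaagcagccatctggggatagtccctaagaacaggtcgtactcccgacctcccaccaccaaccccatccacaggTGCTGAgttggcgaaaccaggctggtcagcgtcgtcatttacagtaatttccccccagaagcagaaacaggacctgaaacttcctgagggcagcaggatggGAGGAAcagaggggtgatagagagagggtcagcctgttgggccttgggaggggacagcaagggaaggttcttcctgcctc
C1qc: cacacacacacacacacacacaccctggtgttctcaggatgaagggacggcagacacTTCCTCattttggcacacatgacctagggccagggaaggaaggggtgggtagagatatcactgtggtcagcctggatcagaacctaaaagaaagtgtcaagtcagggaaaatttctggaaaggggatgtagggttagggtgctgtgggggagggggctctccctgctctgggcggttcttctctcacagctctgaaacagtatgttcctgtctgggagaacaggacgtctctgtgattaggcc
C3: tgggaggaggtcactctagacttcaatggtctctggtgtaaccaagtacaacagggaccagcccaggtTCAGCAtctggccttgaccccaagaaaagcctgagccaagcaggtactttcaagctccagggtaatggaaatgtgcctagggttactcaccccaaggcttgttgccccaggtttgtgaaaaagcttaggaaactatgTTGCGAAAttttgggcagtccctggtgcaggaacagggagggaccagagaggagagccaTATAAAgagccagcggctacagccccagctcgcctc
Both C1q windows held GAGGAA, which 28.3% of the 32851 windows of this length also hold, and neither held TATAAA or TTGCNNAA. TGCTGA was in the *C1qb* window and not in that of *C1qc*. The *C3* window held TATAAA, TTGCNNAA and TGCTGA, which 13.6%, 10.8% and 19.5% of all windows hold. Its TATAAA lay 14 bases after the RefSeq start, not before it. The 3 windows were picked by the direction of their genes, and windows of other members held some of these motifs too. The PU.1 core was also in the *Cfp* window, and the TATA box in that of *C3ar1*. The Maf half-site was also in the windows of *C3ar1* and *C5ar1*. Only the C/EBP motif was found in the *C3* window alone. These matches are descriptions of the letters in the windows, and their bearing on the levels was not tested.

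The C1q chains stood higher in F4/80high TAMs in 3 of 3 pairs, as 16.0% of all genes tested did. *C1qa* measured 971, 2467 and 543 CPM in replicates 1, 2 and 3 of F4/80high, against 199, 976 and 83.2 CPM in F4/80low. Within each pair the F4/80high library was the higher one, but across pairs the subsets overlapped, since F4/80low replicate 2 lay just above F4/80high replicate 1. *C1qb* measured 1416, 3399.95 and 725 CPM in F4/80high against 341, 1512 and 138 CPM in F4/80low TAMs, with the same order of libraries. *C1qc* measured 1049.5, 2977 and 481 CPM in F4/80high against 222, 1135 and 55.6 CPM in F4/80low TAMs. Replicate 2 held the most and replicate 3 the least C1q RNA in both subsets.

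**Figure D1:**
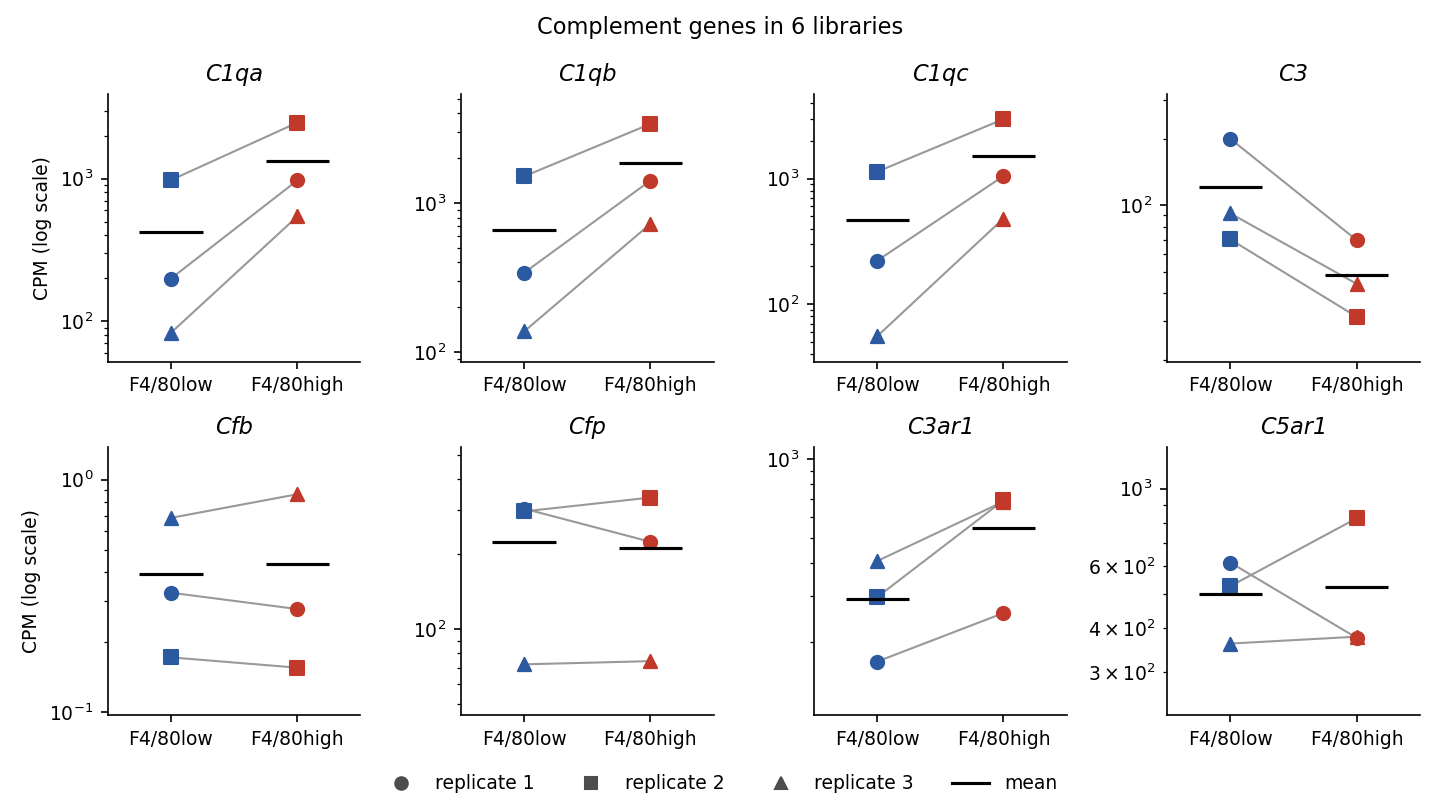
CPM of each of the 8 genes (vertical axis, log scale) in F4/80low (blue) and F4/80high (red) TAMs, with a grey line joining the libraries of one replicate number and a black bar at the mean of 3 libraries. The lines rise in all 3 pairs for *C1qa*, *C1qb*, *C1qc* and *C3ar1*, fall in all 3 for *C3*, and differ in direction for *Cfb*, *Cfp* and *C5ar1*.

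As fold differences within pairs 1, 2 and 3, *C1qa* was 4.87, 2.53 and 6.53 times higher in F4/80high, *C1qb* 4.16, 2.25 and 5.27 times and *C1qc* 4.73, 2.62 and 8.66 times. With batch as a term the log2 fold changes were 1.93 for *C1qa* (SE 0.58), 1.71 for *C1qb* (SE 0.55) and 2.07 for *C1qc* (SE 0.64), with edgeR adjusted p of 0.504, 0.524 and 0.518, so that none was called. When the replicate number replaced the batch as a block, which compares each library with its partner, they were 2.11 (SE 0.27), 1.87 (SE 0.25) and 2.24 (SE 0.31), with edgeR adjusted p of 0.0272, 0.0283 and 0.0300, and all 3 were called. The blocked estimates stand within 1 SE of those with batch, and their own SE are smaller. *C1qa* is among the genes that the study itself picked out from these libraries, so its call is not independent evidence. The blocked calls were lost without replicate 3 of both subsets, when the edgeR adjusted p were 0.0627, 0.0856 and 0.0584 and the log2 fold changes 1.81, 1.61 and 1.82. With the batch term, leaving out F4/80low replicate 2 raised the log2 fold changes to 2.93, 2.64 and 3.15.

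The 3 C1q messages together took 0.450% of all counts in F4/80high replicate 1 (95% Wilson interval 0.447% to 0.452%), 1.04% in replicate 2 (1.04% to 1.05%) and 0.101% in replicate 3 (0.0993% to 0.102%). In F4/80low they took 0.0921% (0.0911% to 0.0932%), 0.453% (0.450% to 0.455%) and 0.0150% (0.0144% to 0.0156%). These intervals cover counting error only and are far narrower than the spread between replicates. The batch term was also below an adjusted p of 0.05 for the C1q chains, which were lower in batch 2 by 2.20 (*C1qa*), 2.21 (*C1qb*) and 2.76 (*C1qc*) on the log2 scale, with edgeR adjusted p of 0.0253, 0.0190 and 0.0150. The batch term passed in 42.6% of all genes tested. The difference between subsets was not shown to differ between the batches (edgeR interaction term, unadjusted p of 0.381, 0.419 and 0.271, adjusted p = 0.9999 each). For no member did this term pass, and 0% of all genes did, with 4.01% at an unadjusted p under 0.05.

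Levels of different genes are compared per length, as CPM per kb of the deposited gene length (RPKM). *C1qb* had the highest mean of the 8 in both subsets, at 1698 ± 1276 RPKM in F4/80high against 609.9 ± 682 RPKM in F4/80low (SD, n = 3 for both), and ranked 24 of the 14645 genes by the mean RPKM over the 6 libraries. *C1qa* ranked 37, at 1276 ± 971 and 404 ± 467 RPKM, and *C1qc* ranked 67, at 778 ± 677 and 244 ± 301 RPKM. Next came *C5ar1* (204 ± 100.1 and 195 ± 50.1 RPKM), *C3ar1* (127 ± 58.0 and 67.6 ± 27.8 RPKM) and *Cfp* (122 ± 76.0 and 129 ± 76.1 RPKM). In F4/80high their levels overlap within their SD. In F4/80low *Cfp* overlapped both receptors within the SD. There *C5ar1*, at 141 to 239 RPKM, lay above *C3ar1*, at 39.2 to 94.7 RPKM, without overlap. *C3* was lower, at 9.42 ± 3.79 and 23.5 ± 13.5 RPKM, and *Cfb* was lowest, at 0.153 ± 0.134 and 0.140 ± 0.0931 RPKM. The 3 chains also overlap in these ranges, but their order per length held within every library. That of *C1qa* above *C1qc* rests on the deposited lengths, 1040 and 1931 bases. By CPM, *C1qc* lay above *C1qa* in replicates 1 and 2 of both subsets and below it in replicate 3. By RPKM within single libraries, *C1qb* ranked 18, 7 and 67 in replicates 1, 2 and 3 of F4/80high and 116, 20 and 484 in F4/80low, and *C1qc* ranked 51, 20 and 214 against 393, 57 and 2000. In F4/80low replicate 3 *C5ar1*, at 141 RPKM, exceeded all 3 chains. The level of *C1qa* over that of *C1qb*, per length, was 0.717, 0.759 and 0.783 in replicates 1, 2 and 3 of F4/80high against 0.612, 0.675 and 0.632 in F4/80low, and the subsets did not overlap. The level of *C1qc* over that of *C1qb* was 0.418, 0.493 and 0.374 in F4/80high against 0.367, 0.423 and 0.227 in F4/80low TAMs, with overlap. Neither ratio was tested, and a shift in the make-up of the chains is not shown.

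*C3* was the one gene of the 8 with its F4/80high library below its partner in 3 of 3 pairs, as seen for 15.9% of all genes tested. It lies on chromosome 17 from 57203970 to 57228136. It measured 69.7, 31.4 and 44.2 CPM in F4/80high against 199.8, 70.2 and 92.0 CPM in F4/80low replicates 1, 2 and 3. The subsets did not overlap, although F4/80high replicate 1 and F4/80low replicate 2 nearly met, and 2.90% of all genes tested were lower in F4/80high without overlap. In pairs 1, 2 and 3 it was 2.87, 2.24 and 2.08 times higher in F4/80low. Its fitted log2 difference was -1.30 (SE 0.42, edgeR adjusted p = 0.524) with batch, and -1.25 (SE 0.21, edgeR adjusted p = 0.0463) with the replicate block, which called it. This call was lost on leaving out any pair, with edgeR adjusted p of 0.0508, 0.0620 and 0.127 without replicates 1, 2 and 3. Without F4/80low replicate 1 the log2 fold change with batch was -0.73.

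**Figure D2:**
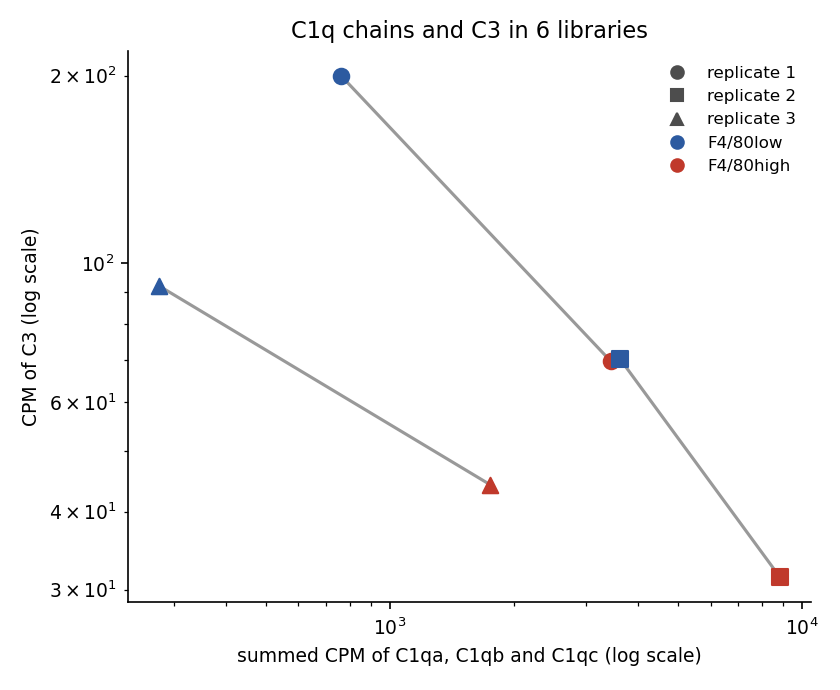
Summed CPM of the 3 C1q chains (horizontal axis, log scale) against the CPM of *C3* (vertical axis, log scale) in each library, with a line joining each F4/80low library (blue) to the F4/80high library (red) of its replicate number. Each of the 3 lines runs to more C1q and less *C3* from F4/80low to F4/80high, and the summed C1q level spans 276 to 8844 CPM while that of *C3* spans 31.4 to 199.8 CPM.

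Neutrophil markers shared the direction of *C3* within pairs, and so did most markers of several other lists. All 6 of 6 genes on the neutrophil list (*S100a8*, *S100a9*, *Retnlg*, *Csf3r*, *Cxcr2* and *Mmp8*) were lower in F4/80high in 3 of 3 pairs, and their summed level ran from 656 to 1851 CPM in F4/80high and from 1369 to 3981 CPM in F4/80low TAMs. The summed level of 5 eosinophil markers ran from 88.2 to 175 CPM in F4/80high and from 245 to 591 CPM in F4/80low, and 4 of 5 were lower in F4/80high in 3 of 3 pairs. Of 6 dendritic cell markers 5 were lower in 3 of 3 pairs (73.5 to 262 CPM against 132 to 475 CPM), as were 4 of 5 monocyte markers (637 to 3755 CPM against 1522 to 7140 CPM) and 3 of 5 fibroblast markers (429 to 1524 CPM against 1009 to 1886 CPM). Of all genes tested, 15.9% were lower in 3 of 3 pairs. An unadjusted edgeR p under 0.05 was met by 5 of 6 neutrophil, 4 of 5 eosinophil and 4 of 5 monocyte markers. It was also met by 1 of 6 dendritic cell and 1 of 5 fibroblast markers, and 4.32% of all genes met it as lower. T and NK cell markers had the direction of C1q in the fit, with 4 of 4 tested genes higher in F4/80high. An unadjusted edgeR p under 0.05 was met by 2 (*Cd3e*, log2 fold change 0.99, and *Cd8a*, 0.89), and 3.28% of all genes met it as higher. However, 0 of 5 were higher in 3 of 3 pairs, against 16.0% of all genes (summed level 93.7 to 509 CPM against 41.4 to 232 CPM). The sort had a lineage-negative gate. None of these markers was at 0 in all libraries. Their part in the lower *C3* level, or in the higher C1q levels, was not tested. The 3 of 5 melanoma cell markers with a row (*Tyr* and *Dct* had none) summed to at most 3.08 CPM in any library, and the 1 of 3 keratinocyte markers with a row, *Krt10*, reached at most 1.82 CPM.

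The other components of the alternative pathway did not pass the test in any fit. *Cfb* (chromosome 17, 34856374 to 34862518) held only 11, 8 and 8 counts in F4/80high and 13, 7 and 6 counts in F4/80low replicates 1, 2 and 3, and its fold change could not be resolved at this depth (log2 fold change -0.03, SE 1.25). GENCODE M21 also has the longer gene *Gm20547* over *Cfb*, so reads could have been shared or dropped in counting. *Cfp* (chromosome X, 20925454 to 20931555) was well expressed, at 224, 338 and 74.4 CPM in F4/80high against 305, 297 and 72.2 CPM in F4/80low replicates 1, 2 and 3. The subsets overlapped throughout, with a log2 fold change of -0.05 (SE 0.23, edgeR adjusted p = 0.972). Between batches it differed more than between subsets, with batch 2 lower by 1.99 on the log2 scale (edgeR adjusted p = 4.72e-04).

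The receptors of the anaphylatoxins differed in their values. *C3ar1* lies on chromosome 6 from 122847138 to 122856161 and exceeded its F4/80low partner in 3 of 3 pairs. It measured 258, 695 and 687 CPM in F4/80high against 169, 297 and 408 CPM in F4/80low replicates 1, 2 and 3. Both subsets overlapped, since F4/80high replicate 1 lay below F4/80low replicates 2 and 3. With batch it had a log2 fold change of 0.94 (SE 0.38, edgeR adjusted p = 0.623), against 0.86 (SE 0.20, edgeR adjusted p = 0.122) with the block, and it was not called. DESeq2 with the block gave 0.87 (DESeq2 adjusted p = 0.00708), which passed adjustment but fell short of the fold change required for a call. Without F4/80high replicate 2 the value with batch was 0.38. *C5ar1* (chromosome 7, 16246743 to 16259540) measured 375, 822 and 378 CPM in F4/80high against 615, 527 and 361 CPM in F4/80low replicates 1, 2 and 3. It was 1.64 times higher in F4/80low in pair 1, 1.56 times higher in F4/80high in pair 2 and nearly level in pair 3, with a log2 fold change of 0.07 (SE 0.30, edgeR adjusted p = 0.972).

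**Figure D3:**
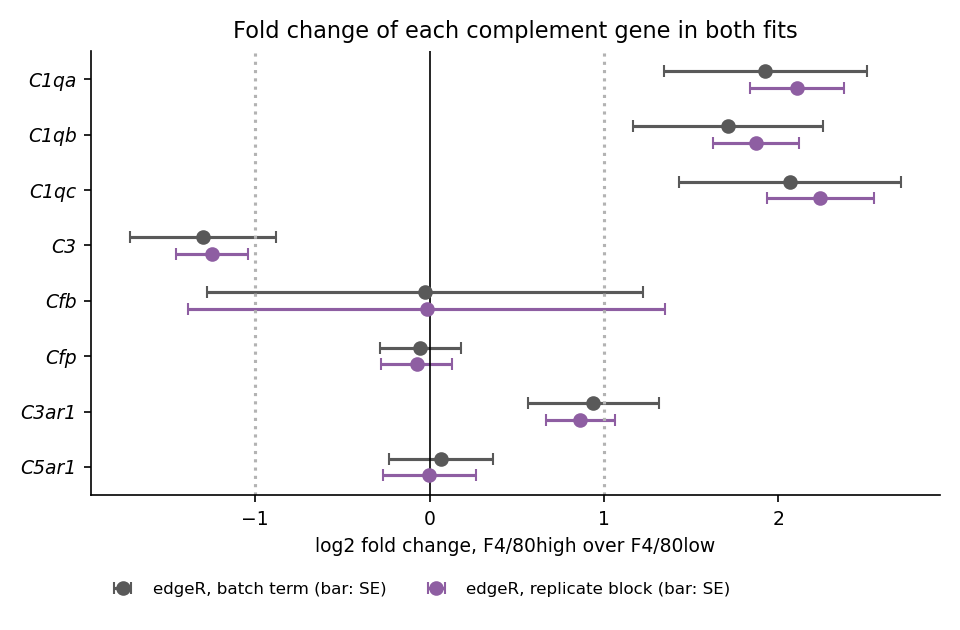
Log2 fold change of F4/80high over F4/80low TAMs (horizontal axis) for the 8 genes in the edgeR fit with batch (grey) and with the replicate block (purple), with bars of 1 SE. Dotted lines stand at -1 and 1. The C1q chains lie between 1.71 and 2.24 in both fits, *C3* near -1.3, and *C5ar1*, *Cfp* and *Cfb* near 0, with a wide bar for *Cfb*.

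Counted over the 8 genes with the batch term, 0 were called by edgeR, as were 0% of all genes tested. Before adjustment, 4 of the 8 passed a p of 0.05 as higher in F4/80high (the C1q chains and *C3ar1*) against 3.28% of all genes, and 1 as lower (*C3*) against 4.32% of all genes. DESeq2 with batch called 0 of the 8 and 1.12% of all genes with an adjusted p. Among its values, *C1qb* came nearest, with a DESeq2 adjusted p of 0.0630. With the replicate block, edgeR called 3 of the 8 as higher in F4/80high against 0.232% of all genes, and 1 as lower against 0.287%. DESeq2 with the block called the same 4 genes, against 2.68% of all genes with an adjusted p. The median log2 fold change was 0.50 for the 8 genes and 0.01 for all genes tested. The 3 C1q genes are neighbors with one pattern and do not count as 3 separate observations. All 8 genes were chosen with earlier results of these data known, so these counts are not independent evidence. For *C1qa*, *C1qb*, *C1qc* and *C3ar1* the log2 fold change was positive, and for *C3* negative, in all 21 fits made.

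Of 46 other complement genes on a list set down for comparison, 34 had a row and 28 were tested. Of these 28, edgeR called 0 in the fit with batch, as it did 0% of all genes tested. An unadjusted p under 0.05 was met by 5 as higher in F4/80high, against 3.28% of all genes. It was met by 2 as lower, against 4.32% of all genes. This list, too, was chosen with earlier results of these data known. The median log2 fold change of the 28 genes was -0.03. In the classical pathway, *C4b* encodes C4, which is cleaved after C1q has bound. It measured 28.7, 84.6 and 16.9 CPM in F4/80high against 18.7, 15.1 and 5.13 CPM in F4/80low replicates 1, 2 and 3, higher in F4/80high in 3 of 3 pairs. With batch it had a log2 fold change of 1.74 (SE 0.39, edgeR adjusted p = 0.440), against 1.61 with the block (edgeR adjusted p = 0.126), and DESeq2 called it with batch (adjusted p = 0.0110) and with the block (adjusted p = 0.00146). The study also picked *C4b* from these libraries. Its near-identical copy *C4a*, which M21 does not class as protein-coding, measured 0.819 ± 0.485 CPM in F4/80high against 3.77 ± 0.918 CPM in F4/80low (SD and n = 3 for both). The fit over genes of all biotypes gave it a log2 fold change of -2.19 (SE 0.67, edgeR adjusted p = 0.661), opposite to that of *C4b*, and how reads were divided between these copies is not given in the sources used here. The proteases of the C1 complex were low, with *C1ra* at 14.0 ± 8.74 and 10.7 ± 9.14 CPM and *C1s1* at 1.99 ± 3.19 and 2.42 ± 0.922 CPM in F4/80high and F4/80low TAMs (SD, n = 3 each).

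Lectin pathway genes were few. *Fcna* encodes ficolin A, a pattern receptor of macrophages, and measured 8.94, 90.5 and 0.757 CPM in F4/80high against 3.06, 13.4 and 0.456 CPM in F4/80low replicates 1, 2 and 3. F4/80high exceeded F4/80low in 3 of 3 pairs (log2 fold change 2.34, SE 0.93, edgeR adjusted p = 0.621). DESeq2 with the block called it (log2 fold change 1.95, adjusted p = 0.00111) and edgeR with the block did not (adjusted p = 0.0874). Its pair 3 rested on 7 counts against 4, and most of its F4/80high mean came from replicate 2. *Fcnb*, the ficolin of granulocytes and monocytes, went the other way in 3 of 3 pairs, at 0.904 ± 0.966 CPM in F4/80high against 3.01 ± 2.16 CPM in F4/80low (SD, n = 3 each; log2 fold change -1.69, SE 0.82). Pair 3 of *Fcnb* held 3 counts against 8. The scavenger receptor gene *Colec12* measured 41.5 ± 21.6 and 50.8 ± 21.2 CPM (SD, n = 3 each; log2 fold change -0.26). Terminal pathway genes stayed under 5 CPM in all libraries. *C6*, a component of the membrane attack complex, measured 1.74, 4.39 and 2.49 CPM in F4/80high against 1.28, 0.910 and 0.228 CPM in F4/80low replicates 1, 2 and 3 (log2 fold change 1.98, SE 0.79, edgeR adjusted p = 0.621). *C8g* and *Hc*, which encodes C5, had log2 fold changes of 0.04 (SE 0.68) and -1.97 (SE 1.87). Factor D (*Cfd*) held 6 counts in F4/80high replicate 1 and 0 in the other libraries, and *Cfi*, the C3b-cleaving protease, held 0 counts in all 6.

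**Figure D4:**
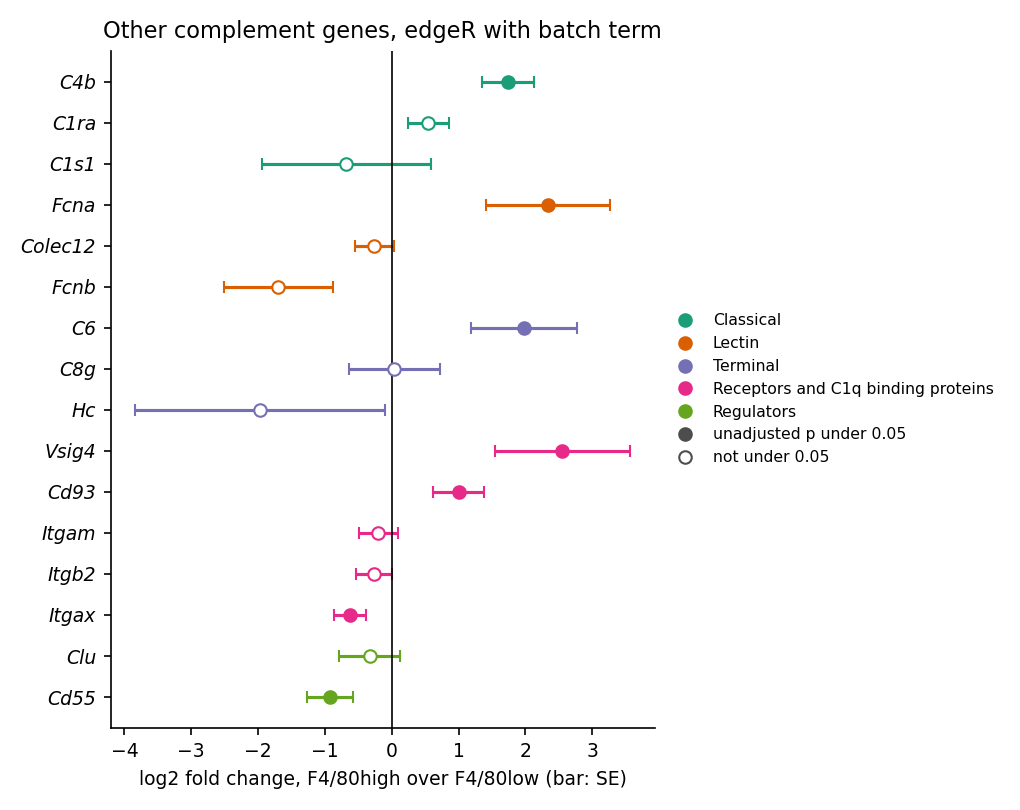
Log2 fold change of F4/80high over F4/80low TAMs (horizontal axis) of complement genes outside the 8 that are named in the text, colored by role, from edgeR with batch, with bars of 1 SE. Filled points have an unadjusted p under 0.05. *Vsig4*, *Fcna*, *C6*, *C4b* and *Cd93* lie to the right of 0, and *Itgax* and *Cd55* to the left, and none passed after adjustment.

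Among receptors, *Vsig4* encodes CRIg, which binds C3b on tissue macrophages, and measured 3.41, 29.5 and 0.324 CPM in F4/80high against 0.803, 5.19 and 0 CPM in F4/80low replicates 1, 2 and 3. F4/80high exceeded F4/80low in 3 of 3 pairs (log2 fold change 2.56, SE 1.01, edgeR adjusted p = 0.621), but pair 3 rested on 3 counts against 0. DESeq2 with the block called *Vsig4* (log2 fold change 2.43, adjusted p = 0.00408) while edgeR with the block did not (adjusted p = 0.103). *Cd93*, once described as a C1q receptor, measured 63.9, 197 and 505 CPM in F4/80high against 55.8, 79.0 and 236 CPM in F4/80low TAMs (log2 fold change 1.00, SE 0.38, edgeR adjusted p = 0.599). The subunits of complement receptors 3 and 4 did not share this direction. *Itgam* (CD11b, used for the sort) measured 619 ± 242 and 713 ± 194 CPM and *Itgb2* 544 ± 309 and 633 ± 215 CPM (SD, n = 3 each), with log2 fold changes of -0.20 (SE 0.29) and -0.27 (SE 0.27). *Itgax* was lower in F4/80high in 3 of 3 pairs, at 91.1, 67.5 and 737 CPM against 149, 119 and 935 CPM (log2 fold change -0.62, SE 0.24, edgeR adjusted p = 0.607). Of the regulators that protect host cells, *Cd55* was lower in F4/80high in 3 of 3 pairs, at 20.4, 9.64 and 7.03 CPM against 22.5, 32.9 and 14.1 CPM (log2 fold change -0.92, SE 0.35, edgeR adjusted p = 0.598). *Clu*, which encodes clusterin, measured 10.7 ± 11.1 and 13.8 ± 9.96 CPM (SD, n = 3 each), with a log2 fold change of -0.33 (SE 0.45).

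Likeness of pattern was described by the root mean square distance of log2 CPM, centered in each batch, over the 6 libraries. The points share libraries, scaling and centering, and no test was made. The C1q chains were close to each other, at distances of 0.13 (*C1qa* to *C1qb*), 0.13 (*C1qa* to *C1qc*) and 0.24 (*C1qb* to *C1qc*). The 5 genes nearest to the mean of the C1q chains, among 7020 whose log2 CPM averaged 4 or more, were *Ms4a7* (0.13, Pearson r = 0.996), *Mrc1* (0.18, r = 0.991), *Itga9* (0.25, r = 0.981), *Hpgds* (0.27, r = 0.984) and *Ccl7* (0.31, r = 0.977). *Ms4a7* encodes a membrane protein of macrophages, *Mrc1* the mannose receptor, *Itga9* an integrin chain, *Hpgds* a prostaglandin D synthase and *Ccl7* a monocyte chemokine. Nearest to *C3* were *Ace* (0.09), which encodes angiotensin-converting enzyme, *Mmp8* (0.12), the neutrophil collagenase on the marker list above, and *Arhgap26* (0.13). Nearest to *C3ar1* were *Renbp* (0.04) and *Dhrs3* (0.05), which encodes a retinal reductase. *Sgpp1* (0.06), *Fam217b* (0.07) and *Ino80c* (0.07) lay nearest to *C5ar1*, and *Bcas3*, *Kctd3* and *Fam160b1* (0.03 each) nearest to *Cfp*. For *Cfb*, at 6 to 13 counts, *C2cd5*, *Fasn* and *Rnf19b* came nearest, but the log values depend on the prior count. Between the 8 genes, *C5ar1* and *Cfp* had r = 0.96, *C3* and *C3ar1* r = -0.96 and *C1qa* and *C3* r = -0.96 over the 6 libraries.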

How the data were processed

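The authors deposited a table of raw read counts per gene for each library, with gene length and biotype. The study used the standard pipeline of its sequencing center. The aligner, counting rule, strand, build and annotation are not given in the sources used here. Of the gene IDs, 99.4% were found in GENCODE M21 (GRCm38), which gave biotypes and positions. Promoters are from RefSeq (GRCm38.p6), where 6 of the 8 genes had an entry.

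Protein-coding genes with at least 10 counts over the 6 libraries were kept (14645), and all 8 members passed. Counts were fitted in R 4.3.3 with edgeR 4.0.16 (TMM, quasi-likelihood test, terms for batch and subset). SE are the log2 fold change over the square root of F. Alternatives were DESeq2 1.42.0, a replicate block, no batch term, other scalings, filters and gene sets, and leaving out libraries. The steps were tested on simulated data. Total counts set the precision: 3 counts are 0.0583 to 0.342 CPM on the TMM scale. No library was a copy of another.

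Pairing by replicate number is assumed from the study's 3 experiments and is not stated in the labels. The counts of pairs and the blocked fits rest on it. Over 10072 genes, each library's difference from the mean of its subset was compared, and gave correlations of 0.745, 0.729 and 0.907 within pairs 1, 2 and 3, against 0.612 and 0.633 for the mismatched libraries of batch 1. Centered within batch 1, the correlation was 0.242.

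The named genes are the 8 members, *Adgre1*, other complement genes with an unadjusted p under 0.05 or among the 3 with the highest mean CPM of their role, and the nearest genes by pattern (5 for C1q, 3 for each other gene). *C4a*, *Cfd* and *Cfi* were added after their values were seen, as were the promoter motifs. Some genes that this rule names are not reported here. The members and lists were chosen with earlier results of these data known.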

Additional observations from a re-analysis of the deposited data

How the results depend on the processing

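Over 21 fits, *C1qa*, *C1qb*, *C1qc*, *C3* and *C3ar1* kept their direction in all. Under the replicate block the log2 fold changes that passed were 2.11, 1.87, 2.24 and -1.25 for *C1qa*, *C1qb*, *C1qc* and *C3*, and with DESeq2 and the block 2.11, 1.88, 2.25 and -1.25. The block without replicate 1 gave 2.02, 1.78 and 2.24 for the C1q chains, and without replicate 2 2.45, 2.19 and 2.63, all called. In the other fits they stayed uncalled. The block changed no other call among the 8 genes. Leaving out single libraries or pairs, the log2 fold change ran from 1.55 to 2.93 for *C1qa*, 1.36 to 2.64 for *C1qb*, 1.57 to 3.15 for *C1qc*, -0.36 to 0.35 for *C5ar1* (-0.35 without F4/80high replicate 2), -0.24 to 0.33 for *Cfb* and -0.26 to 0.11 for *Cfp*. *C5ar1* reversed under the block (-2.88e-04, and -0.033 without replicate 3), and *Cfb* with no batch term (0.12), with library size alone (0.036) and under the block without replicate 1 (0.095) or 2 (0.0031). The cause was not tested.

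Calls among the 8 genes moved from 0 to 3 higher and 1 lower in F4/80high with the block, by edgeR and by DESeq2, and ranged from 0 to 3 higher when libraries or pairs were left out. For other complement genes, 1 was called higher by DESeq2 with batch and 3 (*C4b*, *Fcna* and *Vsig4*) by DESeq2 with the block, and 0 to 3 when libraries or pairs were left out. Over all genes, 45 higher and 103 lower were called by DESeq2 with batch, 34 and 42 with the block, 131 and 223 by DESeq2 with the block, 32 and 25 without F4/80high replicate 1, and 125 and 190, 18 and 17, and 18 and 4 by the block without replicates 1, 2 and 3.

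With centering in each pair, 3 of the 5 genes nearest to C1q, 1 of 3 for *C3*, 1 of 3 for *C5ar1* and 0 of 3 for *Cfb* remained, and 1 of 3 for *Cfb* with a prior count of 0.5. Depth limits *Cfb*, at 6 to 13 counts.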
